A study of Mus musculus with 7 samples.

Results

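Eomes-positive excitatory intermediate precursors were taken from 3 single-cell RNA libraries of early postnatal mouse brain. A cell was included when it had at least 500 detected genes and at most 10% of its UMIs (unique molecular identifiers, each standing for 1 captured RNA molecule) in mitochondrial genes. It also had at least 2 UMIs of Eomes and at most 1 UMI of Dlx1, Dlx2 and Dlx6os1 together. The rule found 223 cells among the 11149 filtered cells of the 3 libraries, and the whole series held 21002 filtered cells in 7 libraries. Of the 223, 66 came from postnatal day 2 (P2) cortex, 141 from P7 cortex and 16 from P7 subventricular zone (SVZ). The cortex libraries were of CD1 mice and held the tissue above the lateral ventricles, from the ventricular lining through white to grey matter. The P7 SVZ library was of C57BL/6 mice and held the dorsal and lateral germinal wall cut out on its own. No treatment was listed for any group. Each group was 1 library, so age, region and strain cannot be told apart from the library itself. The cells were thus chosen by their Eomes and Dlx UMIs, which are given as a description and were not tested.

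Intermediate precursors stand between radial glia, the stem cells that line the ventricle, and excitatory neurons of the pallium. Eomes (also called Tbr2) is a T-box transcription factor switched on in them. The proneural factor Neurog2 acts before or alongside it, and Neurod1 and Tbr1 follow as the cells leave the cell cycle. Most cortical excitatory neurons of the mouse are made before birth, and precursors of this kind are also known from the postnatal SVZ, where they give rise to glutamatergic cells of the olfactory bulb.

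The cells were most frequent in P7 cortex. They made up 2.01% of filtered cells in P2 cortex (66 of 3283, exact 95% binomial interval 1.56 to 2.55%). The share was 3.41% in P7 cortex (141 of 4140, 2.87 to 4.004%) and 0.429% in P7 SVZ (16 of 3726, 0.246 to 0.696%). These intervals, like all others here, cover counting error only. Just inside the rule, 12, 33 and 8 cells in P2 cortex, P7 cortex and P7 SVZ carried exactly 2 Eomes UMIs. Just outside it, 42, 58 and 9 cells carried 1. Another 2, 19 and 3 cells carried at least 2 Eomes UMIs with 2 or more Dlx UMIs and were left out. Median depth of the included cells was 6925.5, 7476 and 6507 UMIs in the 3 libraries, beside 9588, 6920 and 8363.5 over all filtered cells. A doublet caller marked 1, 4 and 1 of them. Over all 21 pairs of libraries 192 cell barcodes were shared, at most 28 in 1 pair, and 7 of the 223 cells carried a shared barcode.

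**Figure D1:**
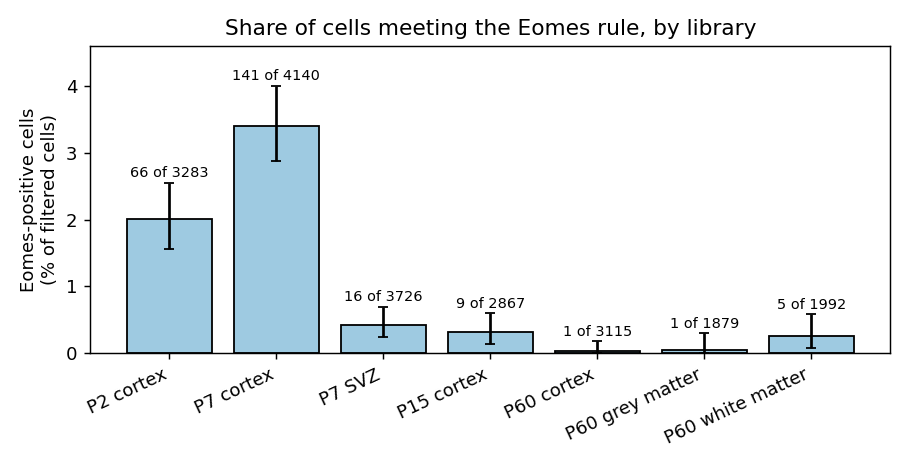
Share of filtered cells that met the Eomes rule in each of the 7 libraries (vertical axis, %); bars are shares, whiskers exact 95% binomial intervals, and the counts stand above each bar. P7 cortex was highest at 3.41%, and the 4 later libraries each held 9 cells or fewer.

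Markers of the labelled cell type were present in all 3 libraries. Levels are given as CPM, the UMIs of a gene relative to all UMIs of the summed cells, and with 1 library per group they carry counting error only. Eomes (chr9:118478212-118486132, plus strand, mm10) reached 544 CPM in P2 cortex, 572 in P7 cortex and 379 in P7 SVZ. Neurog2 was at 349, 454 and 273 CPM in the same order. Neurod1, a basic helix-loop-helix factor of the same cascade, was at 119, 154 and 90.9 CPM. Unc5d, a netrin receptor, was at 167, 129 and 235 CPM, and Sema3c, a secreted semaphorin, at 155, 232 and 250 CPM. P7 SVZ, with 16 cells, was at the end of the range for all 5 markers, lowest for Eomes, Neurog2 and Neurod1 and highest for Unc5d and Sema3c. Each marker was detected in only part of the cells at this depth. Neurog2 had a UMI in 42.4%, 53.2% and 43.8% of the cells and Neurod1 in 48.5%, 51.1% and 50%. Among cells with at least 10 C1q UMIs, a microglial gate of similar depth (median 11729, 7555.5 and 8759.5 UMIs), Neurog2 had a UMI in 0 of 21, 1 of 442 and 1 of 144. A count of 0 in 21 cells still allows a share of up to 16.1% by the exact interval.

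Lists of other cell types were detected to different degrees. Gad1, the enzyme that makes GABA, and Dlx5, an inhibitory lineage factor, had no UMI in any of the 3 libraries, and all 6 lymphocyte genes were at 0. The rule's limit on Dlx UMIs acts on inhibitory lineage genes, so their low values are a description. Among the 2, 19 and 3 cells left out by that limit, Gad1 had a UMI in 0, 2 and 0. In the same cells Dlx5 had a UMI in 1, 3 and 0 and Gad2 in 1, 12 and 2. Of the 16 inhibitory lineage genes 10, 10 and 9 were detected, and they summed to 1110, 1388 and 2084 CPM. The 6 Cajal-Retzius genes summed to 3.79, 4.90 and 7.58 CPM and the 5 endothelial and pericyte genes to 0, 5.72 and 7.58 CPM. Gad2, the other GABA enzyme, was at 7.58, 31.0 and 129 CPM. The 14 radial glia and astrocyte genes summed to 2764, 2802 and 2956 CPM. These near-equal sums hid differences between genes, and Hes5 made up most of the P7 SVZ sum. Of the 14, 8 were at least 2-fold lower in P7 SVZ than in P7 cortex and 1 was higher, where 21.9% of all genes were lower. The median ratio of the list was 0.412, beside 0.863 over all genes. The 9 dissociation response genes, induced by tissue handling, summed to 1472, 1052 and 2031 CPM. The 6 microglial genes (C1qa, C1qb, C1qc, Cx3cr1, P2ry12, Csf1r) summed to 1.89 CPM in P2 cortex, 65.3 in P7 cortex and 720 in P7 SVZ. In P7 SVZ all 95 of these UMIs lay in 1 of the 16 cells, and the sum was 0 CPM without it. In P7 cortex 31 of 141 cells had a C1q UMI, and the sum was 50.1 CPM without the 1 cell that had 10 or more.

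The cells were then set against 3 other classes gated from the same libraries. Radial glia and astrocytes were represented by 3248 Slc1a3-positive cells, the inhibitory lineage by 1690 Dlx-positive cells and postmitotic excitatory neurons by 1779 Neurod6-positive cells. UMIs were summed per library and class and tested with edgeR's quasi-likelihood test with the library as a block and Benjamini-Hochberg adjustment over 13348 genes, calls being made at an adjusted p under 0.05. The 16 cells of P7 SVZ were under the 20-cell minimum, so Eomes-positive sums came from 2 libraries and the others from 3. Genes used in the gates were left out. Classes cut by gate genes are ranges of expression, and genes that follow those genes had to differ, so the calls describe the contrast and are not independent support for the labels. No gene was called lower than all 3 other classes, by edgeR, although 3705, 1485 and 4286 genes had an unadjusted p under 0.05 in the 3 contrasts taken singly. Each count depended on the libraries. Without P7 cortex the calls against the Slc1a3-positive, Dlx-positive and Neurod6-positive cells were 0, 0 and 2. Without P2 cortex they were 979, 29 and 1049, and without P7 SVZ 1165, 54 and 524. Leaving out either cortex library left 1 sum of precursors, whose spread was then taken from the other classes.

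Against Slc1a3-positive cells the precursors were higher in neurogenic transcription factors and lower in glial genes. Of all genes tested 11.2% were called, 482 higher (3.61%) and 1014 lower (7.6%). Of the 12 tested genes of the proneural cascade 9 were higher, with a median log2 difference of 5.54 beside -0.12 over all genes. Neurod1 was at 119 and 154 CPM in the P2 and P7 cortex precursors. In the Slc1a3-positive sums of P2 cortex, P7 cortex and P7 SVZ it was at 0, 0.291 and 0 CPM (log2 difference 9.41 ± 0.83 SE, edgeR adjusted p = 0.000593). Tbr1, a factor of newborn excitatory neurons, was at 152 and 213 CPM against 1.24 to 2.40 (6.68 ± 0.54, adjusted p = 0.000462). Sstr2, a somatostatin receptor, was at 178 and 203 CPM against at most 1.08 (8.31 ± 0.75, adjusted p = 0.000613). Igfbpl1, a secreted relative of the IGF-binding proteins, was the most abundant of the named genes at 3770 and 2958 CPM against at most 20.5 (7.29 ± 1.096, adjusted p = 0.00369). Neurod4, a further proneural factor, and Tfap2d each rested on 1 UMI in all Slc1a3-positive sums, with pooled ratios of 934 (exact 95% interval 162 to 37430.1) and 426 (71.0 to 17355.2).

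On the lower side, 9 of the 14 radial glia and astrocyte genes were called and none was higher. Fabp7, a fatty acid binding protein of radial glia, was at 1131 and 1124 CPM in the precursors against 18815, 10880 and 10664 CPM in the Slc1a3-positive sums (log2 difference -3.94 ± 0.70, edgeR adjusted p = 0.00764). Aldoc and Aqp4, an astrocyte enzyme and water channel, were lower by larger margins (-5.91 and -5.25). Of the 17 Notch pathway genes 5 were lower (Hes1, Notch2, Notch3, Hey1 and Lfng), whereas Dll3 (2.37) and Mfng (3.82), a ligand and a glycosyltransferase of the pathway, were higher. Gad2 (2.41) and Pbx3 were the 2 inhibitory lineage genes called higher. Pax6 and Sox2, factors of radial glia, were not called (edgeR adjusted p = 1 and 0.162, the log2 difference of Sox2 being -0.98), and Pax6 stood at 307 and 359 CPM in the precursors. Among lower calls of named genes whose precursor sums lay below every Slc1a3-positive sum, the 5 largest had no UMI in the precursors. Against a floor of 3 UMIs over the group, Anxa2, an annexin, was at least 22.9-fold lower, Cav2, a caveolin, at least 22.1-fold, Epas1, a hypoxia-inducible factor, at least 20.7-fold, Nog, an inhibitor of BMP signalling, at least 18.2-fold and Pdzph1 at least 32.6-fold lower.

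Fewer genes were called against Dlx-positive cells, 42 higher (0.315%) and 22 lower (0.165%), 0.479% of those tested. Slc17a6, a vesicular glutamate transporter, was at 94.7 and 103 CPM in the precursors and at most 0.554 in the Dlx-positive sums (log2 difference 7.52 ± 1.06, edgeR adjusted p = 0.0208). Emx1, a factor of the dorsal pallium, was at 169 and 98.8 CPM against 0.999 to 3.04 (5.87 ± 0.37, adjusted p = 0.000437). Of the 10 dorsal pallium factors 4 were called higher, Emx1, Tfap2c, Tbr1 and Neurog2, and none lower. Neurog2 and Neurod1 rested on 3 and 1 UMIs in the Dlx-positive sums, with pooled ratios of 1758 (599 to 8545.5) and 1796 (319 to 71227.7). Ly6g6e and Tfap2d each rested on 1 such UMI, with ratios of 214 and 221. Of the 15 tested inhibitory lineage genes 6 were called lower, among them Gad1, Gad2, Dlx5, Sp8 and Sp9. Dlx5, Gad1, Erbb4 (a neuregulin receptor) and Brinp1 had no UMI in the precursors and were at least 107-fold, 79.1-fold, 47.0-fold and 17.2-fold lower. Sp9, a zinc-finger factor of interneurons, had 1 UMI in the precursors and 4547 in the Dlx-positive sums. Of the S phase and G2M phase genes edgeR called 0 of 42 and 0 of 53, where 0.479% of all genes were called, 1485 of all genes had an unadjusted p under 0.05 and DESeq2 called 361, so these counts do not separate the lists from the background. Their summed levels depended on the library. In P2 cortex the S phase genes summed to 2781 CPM in the precursors and 1036 in Dlx-positive cells, and the G2M phase genes to 7915 and 3382. In P7 cortex the order was reversed, at 4064 against 4941 CPM for S phase and 9117 against 10845.5 for G2M phase. Unc5d and Sema3c also missed the threshold here (adjusted p = 0.0727 and 0.345).

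Against Neurod6-positive cells, 922 genes were higher (6.91%) and 936 lower (7.01%), 13.9% of those tested. Depth differed: Neurod6-positive medians were 12743, 5600 and 24496 UMIs in P2 cortex, P7 cortex and P7 SVZ. The tested precursors had 6925.5 and 7476 in P2 and P7 cortex. With each cell thinned to 2000 UMIs, 220 genes were higher and 129 lower of 10596 tested, and the part of depth was not tested. Cycle genes led the higher side: 33 of 42 S phase genes and 46 of 53 G2M phase genes were called, none lower. Top2a, a topoisomerase of dividing cells, was at 218 and 261 CPM in the precursors against 0.769 to 4.25 (log2 difference 7.77 ± 0.87, edgeR adjusted p = 0.0025). Of the 17 Notch genes 10 were higher, among them Hes5 (5.57) and Notch1 (5.62), and Numbl was lower. Of the 15 tested inhibitory lineage genes 6 were higher and 0 lower here, unlike against Dlx-positive cells. The 16 genes of that list summed to 1110 and 1388 CPM in the P2 and P7 cortex precursors. In the Neurod6-positive sums of P2 cortex, P7 cortex and P7 SVZ they stood at 299, 689 and 248 CPM. Depdc1a, E2f8, Tfap2e and Zic5 had no UMI in the Neurod6-positive sums, and were at least 107-fold, 127-fold, 259-fold and 127-fold higher. Neurod4 had 1 UMI there, with a pooled ratio of 1035 (180 to 41462.9). Of 9 tested genes of postmitotic excitatory neurons 5 were lower, among them Slc17a7, Snap25, Syt1 and Grin2b. The synaptic protein gene Syt1 was at 7.58 and 0 CPM against 140 to 966 (-6.58). Fxyd7, Adcy1, Necab1, Brinp1 and Rasl10a had no UMI in the precursors and were at least 140-fold, 70.4-fold, 61.3-fold, 41.4-fold and 18.0-fold lower.

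The Neurod6-positive cells differed between libraries, which bears on the markers. In P7 cortex there were only 23 of them, and they carried Neurod1 at 119, Sema3c at 230, Unc5d at 132 and Tbr1 at 230 CPM, close to the precursors of that library. In P2 cortex the 1539 cells carried 13.1, 29.7, 36.5 and 85.1 CPM of these genes, and in P7 SVZ the 217 cells carried 3.20, 9.43, 13.7 and 152 CPM. Neurod1, Unc5d, Sema3c and Tbr1 were not called in this contrast (adjusted p = 0.0813, 0.370, 0.398 and 0.658). Calb2, the calcium-binding protein calretinin, was at 847 CPM in the 23 cells and at 15.4 and 8.18 CPM in the P2 cortex and P7 SVZ sets.

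In all, 6 genes (0.045% of those tested) were called higher than in each of the 3 classes. They included Neurog2 (chr3:127633135-127635631, plus strand, mm10), Stc2 (chr11:31357307-31370074, minus strand), Tfap2d (chr1:19103022-19166346, plus strand) and Pam (chr1:97795114-98095646, minus strand), all protein-coding. The other two were gene models without a name. Neurog2 had the largest margin, with a log2 difference of 7.01 ± 0.63 SE against Slc1a3-positive, 9.94 ± 0.72 against Dlx-positive and 7.67 ± 0.65 against Neurod6-positive cells. It was proposed as a marker of these cells with earlier results known. Stc2, a secreted glycoprotein, was at 53.0 and 62.9 CPM in P2 and P7 cortex precursors and at 22.7 in P7 SVZ, against at most 4.65 CPM in any sum of another class. Its smallest log2 difference was 4.14 ± 0.52 (edgeR adjusted p = 0.0019). Tfap2d, an AP-2 transcription factor, was at 20.8, 16.3 and 106 CPM against at most 4.25 in the others. Pam, an enzyme that amidates neuropeptides, was at 301, 275 and 159 CPM against 21.2 to 93.6, and its log2 differences were 2.69, 2.36 and 2.35. The P2 and P7 cortex precursor sums lay above every other sum for these 4 genes, which were picked for being higher there. The P7 SVZ precursor sum, which did not enter the test, also lay above the other classes. For Stc2 that P7 SVZ value rested on 3 UMIs, and the share of all genes with such an order was not taken. DESeq2 called 27 genes in all 3 contrasts, the 6 among them. Without P2 cortex 4 genes were called, 3 of them shared with the 6. Without P7 SVZ there were 5, with 4 shared, and without P7 cortex there were 0.

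Upstream sequence is shown for 2 of these genes, Neurog2 for its margin and Stc2 as a secreted product, to print the DNA next to the starts of genes that were higher than in every other class. Each run is the 250 bases before a RefSeq start of the gene (GRCm38.p6), 5′ to 3′ on the gene's strand. The runs lie at chr3:127632886-127633135 (plus strand) and chr11:31370062-31370311 (minus strand). Capitals mark E-boxes (CANNTG, which reads alike in form on both strands and includes CAGATG), the element bound by Neurog and Neurod proteins.
Neurog2: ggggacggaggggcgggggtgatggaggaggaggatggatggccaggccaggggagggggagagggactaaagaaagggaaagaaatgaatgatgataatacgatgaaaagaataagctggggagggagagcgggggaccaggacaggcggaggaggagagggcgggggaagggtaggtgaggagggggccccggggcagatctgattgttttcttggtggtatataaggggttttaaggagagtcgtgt
Stc2: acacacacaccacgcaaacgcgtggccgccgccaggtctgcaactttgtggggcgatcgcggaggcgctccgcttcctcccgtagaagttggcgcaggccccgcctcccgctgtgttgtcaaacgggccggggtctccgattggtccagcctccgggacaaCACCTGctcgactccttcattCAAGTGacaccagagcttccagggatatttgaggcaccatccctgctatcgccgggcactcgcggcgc
The Neurog2 stretch held no E-box and the Stc2 stretch held 2. Among 32851 such RefSeq stretches, 66.2% held at least 1, 14.4% held CAGATG on either strand and 1.12% held the T-box element AGGTGTGA on either strand. Neither printed stretch held the last 2. All 4 named genes matched a RefSeq entry. RefSeq listed 7 such stretches for the 4 genes, and the 1 with the lowest coordinate was read for each gene. The Tfap2d and Pam stretches read in this way held no E-box, and the remaining stretches are not described here. A match is a description of letters and was not tested as a site.

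**Figure D2:**
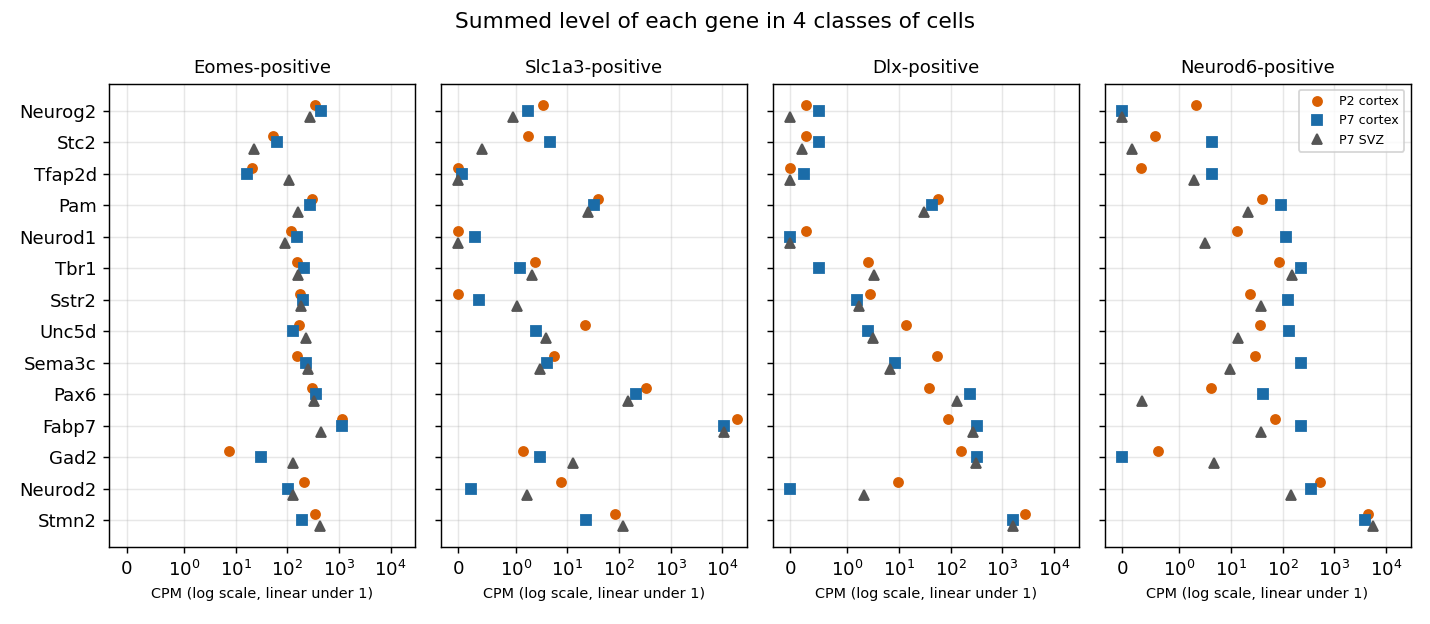
Summed level of 14 genes (rows) in the 4 classes (panels), in CPM on a log axis that is linear under 1; each point is 1 library. Neurog2, Stc2, Tfap2d and Pam were higher in every Eomes-positive sum than in any other, while Fabp7, Gad2 and Neurod2 were highest in other classes in P2 cortex.

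Part of the precursors held transcripts of dividing cells. Mki67, a protein of dividing cells, was at 89.0, 114 and 121 CPM in P2 cortex, P7 cortex and P7 SVZ. A cell was called cycling when it held at least 3 UMIs of 26 core cycle genes after thinning to 2000 UMIs, and non-cycling when it held 0. This short list was chosen after seeing the data, because the full S and G2M lists (95 genes) gave at least 3 UMIs in 95.4%, 99.3% and 87.5% of precursors and also in 95.3%, 100% and 93.5% of Neurod6-positive cells. By the short list 27.7% of P2 cortex precursors (18 of 65, exact 95% interval 17.3 to 40.2%), 33.6% of P7 cortex precursors (47 of 140, 25.8 to 42.0%) and 25% of P7 SVZ precursors (4 of 16, 7.27 to 52.4%) were cycling. Without thinning the shares were 37.9%, 45.4% and 37.5%. The shares in the other classes differed between libraries. Dlx-positive cells were cycling in 5.24%, 34.9% and 32.5%, Slc1a3-positive cells in 12.4%, 6.33% and 10.6%, and Neurod6-positive cells in 0.0650% (1 of 1538), 0 of 22 and 0 of 215. The precursor interval lay above the Dlx-positive one in P2 cortex (3.35 to 7.76%) and overlapped it in P7 cortex (30.9 to 38.9%).

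Precursors also differed in how many neuronal transcripts they held. After thinning, 90 of 221 cells (40.7%) had no UMI of Neurod2, Neurod6 or Tbr1 and were called the early range, 84 (38.0%) had at least 2 and were called the neuronal range, and 47 had 1. These are ranges of a score, not types. The early range held 35.4%, 42.1% and 50% of cells in P2 cortex, P7 cortex and P7 SVZ. Cycling cells lay mostly in it: 52 of 90 early-range cells (57.8%, 46.9 to 68.1%) were cycling, 12 of 47 between the ranges (25.5%) and 5 of 84 in the neuronal range (5.95%, 1.96 to 13.3%). The order was the same in P2 cortex (52.2%, 30.8% and 6.90%) and P7 cortex (62.7%, 25% and 4.08%). In P7 SVZ 3 of 8, 0 of 2 and 1 of 6 cells were cycling. Early-range cells were also deeper, with a median of 9914 and 11221 UMIs in P2 and P7 cortex against 6535 and 6007 in the neuronal range.

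**Figure D3:**
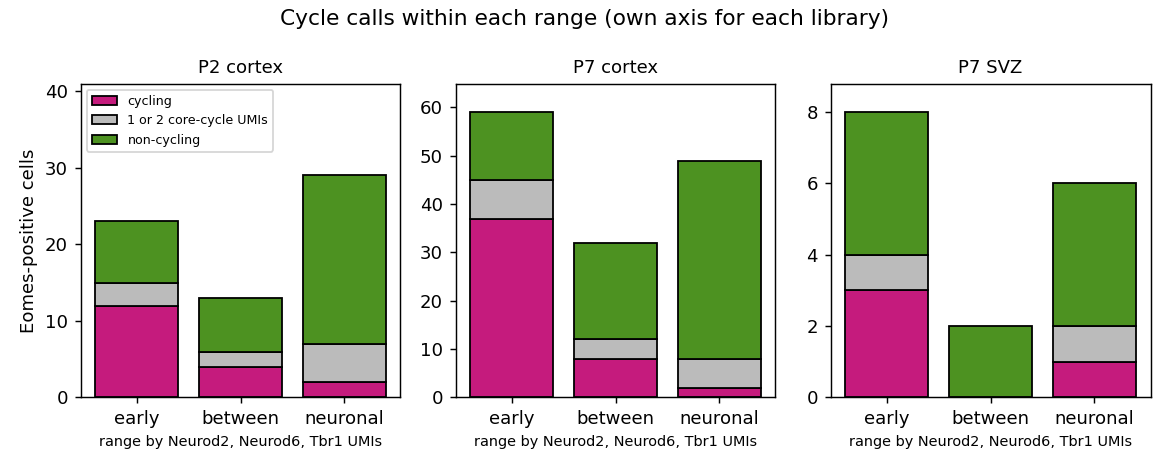
Number of Eomes-positive cells (vertical axis, own scale per library) in the early range, between and the neuronal range, split by cycle call. In P2 and P7 cortex most cycling cells stand in the early bar, 12 and 37, and 2 each in the neuronal bar.

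Within the precursors the 4 other markers did not move together. Neurog2 was at 401 and 576 CPM in the early range of P2 and P7 cortex and at 180 and 169 CPM in the neuronal range. Neurod1 ran the other way, at 31.2 and 74.4 CPM in the early range and 171 and 270.5 CPM in the neuronal range. Unc5d was at 103 and 37.9 CPM in the early range and 245 and 280 in the neuronal range, and Sema3c at 93.7 and 84.6 and then 189 and 479 CPM. In both libraries the levels were on the same side for each of the 4 genes. The log2 differences, neuronal minus early, were -1.50 ± 0.21 for Neurog2, 2.01 ± 0.29 for Neurod1, 2.19 ± 0.28 for Unc5d and 2.06 ± 0.25 for Sema3c. In edgeR's fit the adjusted p-values were 7.57e-11, 1.96e-10, 2.21e-13 and 1.66e-14. That fit had 4 sums and 1 residual degree of freedom, so its spread was pooled over all genes and the p-values mostly reflect counting error. Because the cells were split by neuronal genes, genes that follow those had to differ.

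Between the ranges, 558 genes were higher in the neuronal range (12.1%) and 608 lower (13.2%), 25.4% of 4595 tested. DESeq2 called 155, and the fit on thinned cells called 276 of the 1579 genes that it tested. Migration and cytoskeleton genes were higher in 10 of 13 tested, lower in 0. Tubb3, neuronal tubulin, was at 259 and 271 CPM in the early range and 1961 and 2353 in the neuronal range (3.04 ± 0.15), and Stmn2, a growth cone protein, at 71.4 and 26.3 and then 660 and 538 CPM (3.86 ± 0.25). Calb2 had the largest fitted difference: 2 and 1 UMIs in the early range (8.92 and 1.46 CPM) against 208 and 385 CPM, a pooled ratio of 94.4 (31.7 to 463). Kctd4 (4.86), Bhlhe22, a helix-loop-helix factor of excitatory neurons (3.79), and Ndrg4, with 2 early-range UMIs and a pooled ratio of 18.2 (4.46 to 160), were also among the largest. On the early side 8 of 10 radial glia and astrocyte genes and 27 of 31 S phase and 40 of 43 G2M phase genes were called. Gas1, a hedgehog co-receptor, fell by 3.81 and Hes5, a Notch target, by 2.11 on the log2 scale. Fignl1, Ska1 and Hist1h1b, genes of DNA repair, mitosis and chromatin, held 1 or 2 neuronal-range UMIs each, with pooled ratios of 0.0434, 0.0570 and 0.0560. Stc2 did not pass the test in either split (adjusted p = 0.226 here and 0.275 by cycling call), and Pam was higher in the neuronal range (0.88 ± 0.21).

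**Figure D4:**
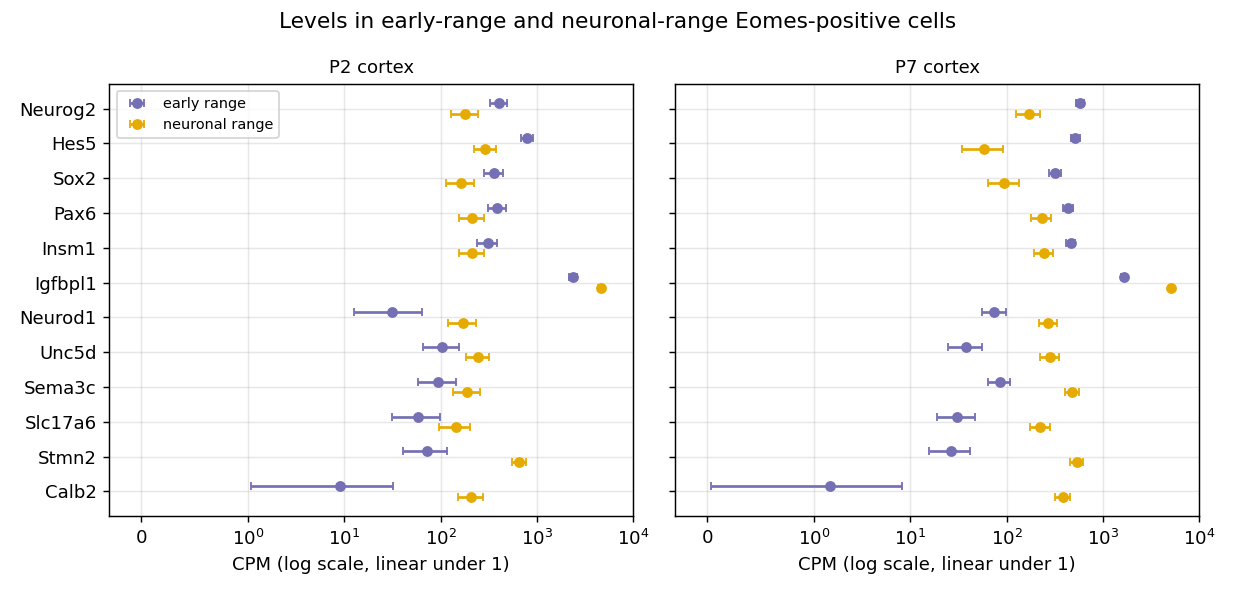
Level of 12 genes (rows, CPM on a log axis that is linear under 1) in the early and neuronal ranges of P2 cortex and P7 cortex; points are sums and whiskers exact 95% Poisson intervals. Neurog2, Hes5 and Sox2 stand higher in the early range, and Neurod1, Sema3c, Stmn2 and Calb2 in the neuronal range.

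The split by cycle call gave 764 genes higher (13.3%) and 715 lower (12.5%) in cycling cells, 25.8% of 5728 tested outside the cycle lists. DESeq2 called 221, and the fit on thinned cells called 201 of the 1620 genes that it tested. Non-cycling cells were defined by 0 UMIs of the core cycle genes, so other cycle genes had to be low in them and genes that follow the cycle had to differ. This fit too had 1 residual degree of freedom, and its p-values mostly reflect counting error. Ccna2, Plk1, Esco2 and Melk, genes of DNA replication or mitosis, and Tuba1c, a tubulin, had no UMI in non-cycling cells. Ccna2 was at 382 and 328 CPM in cycling cells of P2 and P7 cortex and at least 85.5-fold higher, and the others were at least 25.1-fold to 32.3-fold higher. Neurog2 was higher in cycling cells, at 413 and 664 CPM against 307 and 215 (1.21 ± 0.16, edgeR adjusted p = 3.04e-12). Notch1 (1.90), Hes5 (1.69), and Insm1 (1.41) were higher too. Neurod1, Unc5d and Sema3c fell by 2.18, 2.21 and 2.01 on the log2 scale. Islr2, at 240 and 348 CPM in non-cycling cells and 0 and 10.5 in cycling cells, fell by 5.27. Calb2, Rbfox1 and Scn3a, the latter pair encoding a neuronal splicing factor and a sodium channel, had 1 UMI each in cycling cells, with pooled ratios of 0.00670, 0.0188 and 0.0200. Ndrg4 had none and was at least 9.88-fold lower. Cycling cells were deeper, with a median of 10357.5 and 12029 UMIs against 6024 and 6086. The part of depth in the calls that the thinned fit did not make was not tested.

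P2 and P7 cortex precursors were compared as 2 libraries. Of 8192 genes with at least 20 UMIs over both sums, 158 were at least 2-fold higher in P2 (1.93%) and 541 at least 2-fold lower (6.6%), 8.53% in all. For 10 and 16 genes the exact interval lay wholly past 2-fold. Eomes, on which both groups were selected, had a ratio of 0.951, which is a description. None of the other 4 markers reached 2-fold: Neurog2 had a ratio of 0.768 (0.646 to 0.908), Neurod1 0.773 (0.572 to 1.03), Unc5d 1.29 (0.984 to 1.69) and Sema3c 0.670 (0.517 to 0.859). Of the 6 postmitotic excitatory neuron genes past the minimum 1 was at least 2-fold higher in P2 and 0 lower (median ratio 1.12), and of 12 proneural cascade genes 2 were higher and 1 lower (0.919), beside a median of 0.928 over all genes. Neurod2 was at 214 against 105 CPM (ratio 2.05, 1.58 to 2.66) and Bhlhe22 was at 73.9 against 31.0 CPM (2.38, 1.48 to 3.82). Mfap4, a matrix protein gene, was at 216 against 100 CPM (2.15, 1.65 to 2.80). Gadd45g, a growth arrest gene, was lower in P2, at 75.8 against 220 CPM (ratio 0.345, 0.241 to 0.482), and its ratio was 0.291 in Slc1a3-positive and 0.237 in Dlx-positive cells.

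Many of the largest differences in this pair were also seen in other classes of the same libraries. The 8 largest higher in P2 included Cck, Tmsb15b1, Masp1, Meg3, Dusp26, Fabp3 and Syt4, and of the 8, 8 were past 2-fold in Dlx-positive, 5 in Slc1a3-positive and 3 in Neurod6-positive cells as well. Cck, the neuropeptide cholecystokinin, had 32 UMIs against 1, a ratio of 74.2 (12.4 to 3021.9). The largest lower in P2 were Emp2, Hbb-bs, Pf4 and Plat, each with no UMI in P2, and Cep76, Mbp, Selenop and Cyr61. Hbb-bs is haemoglobin, Pf4 a platelet and macrophage gene and Mbp a myelin gene. Of these 8, 5 were past 2-fold lower in Slc1a3-positive, 7 in Dlx-positive and 5 in Neurod6-positive cells. The share of all genes past 2-fold was not taken in those classes. The counts out of 8 thus have no background beside them and are a description. The 6 oligodendrocyte precursor genes summed to 201 CPM in P2 cortex, 82.5 in P7 cortex and 7.58 in P7 SVZ: Olig1 was at 119 against 52.3 CPM and Olig2 at 43.6 against 18.8 in the precursors, beside ratios of 1.004 and 1.04 in Slc1a3-positive cells. Their part in the difference was not tested.

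The 16 cells of P7 SVZ were set beside P7 cortex as values from 2 libraries of different strains. Median mitochondrial share of the precursors was 5.21% in P7 SVZ and 2.43% in P7 cortex. Over the mitochondrial limit were 2540 of 6379 P7 SVZ barcodes and 188 of 4364 in P7 cortex, and at a limit of 5% 7 of the 16 cells remained. The part of RNA quality in the differences was not tested. Of 7554 genes 567 were at least 2-fold higher (7.51%) and 1652 lower (21.9%), 29.4% in all, and for 75 and 43 the interval lay wholly past 2-fold. Emx1 had 1 UMI in P7 SVZ and 121 in P7 cortex, 7.58 against 98.8 CPM, a ratio of 0.0767 (0.00193 to 0.435). In the other classes its ratio was 0.557 in Slc1a3-positive, 1.44 in Dlx-positive and 0.797 in Neurod6-positive cells. Hes5 was higher in P7 SVZ, at 1917 against 368 CPM (5.22, 4.45 to 6.10), and was also 2.81-fold and 4.66-fold higher in Slc1a3-positive and Dlx-positive cells. Pou3f2, a POU factor of upper-layer neurons and their precursors, was at 978 against 475 CPM (2.06, 1.69 to 2.50), and Elavl2, a neuronal RNA-binding protein, at 849 against 441 (1.92, 1.56 to 2.36). Eomes was lower, at a ratio of 0.663 (0.487 to 0.884), in cells chosen for it.

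The largest ratios in this pair lay in 1 cell or were also seen in other classes. Cxcl2 (33 UMIs against 1) and Cx3cr1 (18 against 4), a chemokine and a microglial receptor, lay wholly in the 1 P7 SVZ cell with microglial RNA, and both were at 0 UMIs without it. Hist1h2ae, Hist1h3e, Hist1h4d, Hist1h4h and Hist2h2ac, histone genes, and Lars2, a mitochondrial tRNA synthetase gene, were 22.4-fold to 176-fold higher, and each was past 2-fold in Slc1a3-positive and Dlx-positive cells of the same libraries. The 8 largest lower included Mfge8, Clu, Cuedc1, Mlc1, Acsbg1, Fgfr1 and Actr1b, all with no UMI in the 16 cells, and of the 8, 6 were past 2-fold lower in Slc1a3-positive, 5 in Dlx-positive and 6 in Neurod6-positive cells. Mfge8, a secreted glycoprotein of astrocytes and phagocytes, was at least 11.03-fold lower (251 CPM in P7 cortex) and was at 0.382 times the P7 cortex level in Slc1a3-positive cells. For this pair too the share of all genes past 2-fold was not taken in the other classes, so those counts are a description. Leaving out the cells with at least 10 C1q UMIs gave 556 higher and 1686 lower genes.

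**Figure D5:**
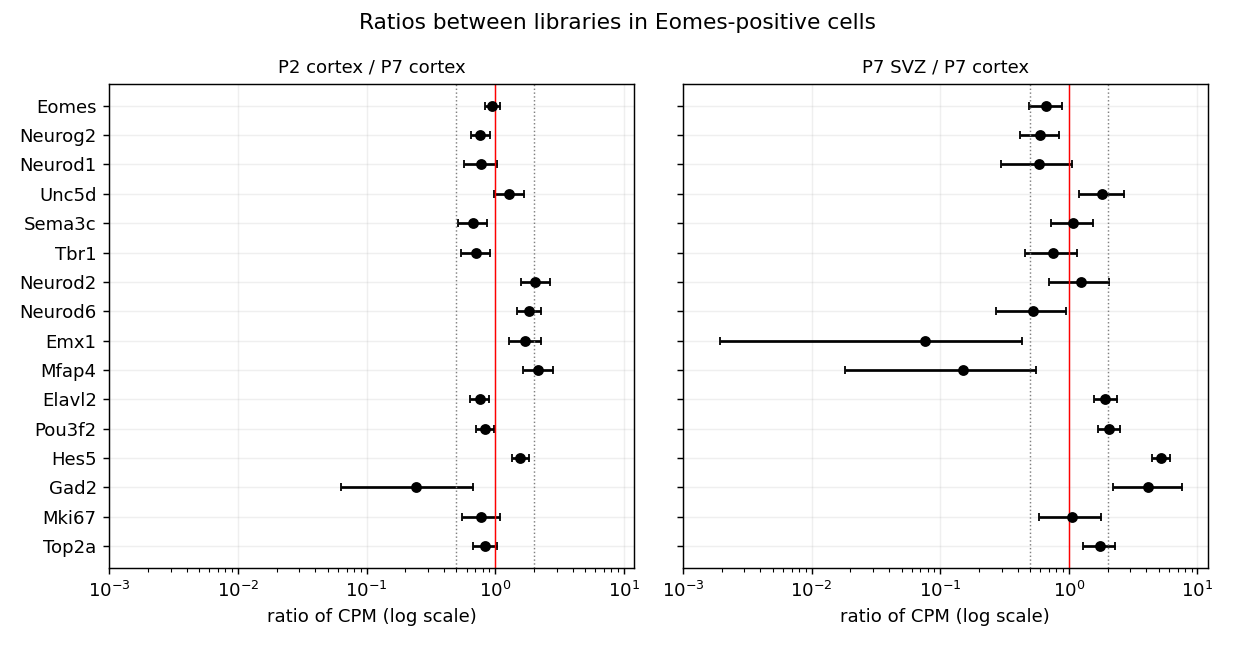
Ratio of CPM in Eomes-positive cells of P2 cortex (left) and P7 SVZ (right) to P7 cortex for 16 genes, on a log axis; whiskers are exact 95% intervals for counting error, the solid line is 1 and dotted lines are 0.5 and 2. Emx1 and Mfap4 lie lowest and Hes5 highest on the right, and none of the 5 markers passes 2-fold on either side.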

How the data were processed

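The authors deposited raw UMI counts per gene and cell for 7 libraries, from droplet 3' libraries per the labels' protocols. Per the file headers the software was Cell Ranger 3.0.2, and mm10 is named in the submitters' processing notes. Total counts of the 3 libraries used were 35952444, 33051283 and 45668007. Cells with under 500 genes or over 10% mitochondrial UMIs were removed. Scrublet, in scanpy 1.11.5, marked doublets, which were kept in the main results. Counts were summed per library and class and tested with edgeR 4.0.16 (TMM, filterByExpr, quasi-likelihood, Benjamini-Hochberg over all genes tested at 0.05), with DESeq2 1.42.0 as an alternative. No label names separate animals. In the class fits, with the library as a block, p-values rest on how the sums of all classes varied between these libraries, not between animals. Only 2 precursor sums entered, so that spread came largely from the other classes. The fit had 5 residual degrees of freedom, joined by 4.70 prior ones drawn from all genes. The p-values of the cycling and range fits mostly reflect counting error. Libraries were compared as CPM ratios with exact conditional intervals. The planned cycle lists left no non-cycling precursor, so 26 core genes, chosen after seeing the data, made the calls. On simulated data with 100 changed genes at each fold, the class contrasts recovered 28 to 39% of 4-fold and 1 or 2% of 2-fold changes, out of 13057 genes. The simulated classes shared 1 profile per library apart from the changed genes. The real classes differed widely, so these rates may not carry over to them. The members and lists were chosen with earlier results of these data known. Genes were named by rule: the largest differences per contrast, list genes and markers, without mitochondrial, ribosomal and unnamed models. In the class contrasts the largest differences were taken only among called genes whose precursor sums did not overlap those of the other class. For those genes non-overlap was a condition of the choice. Alternatives were scaling, filters, block, thinning, doublets, gates and each library left out. 30934 of 31053 genes had a GENCODE M21 position.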

Additional observations from a re-analysis of the deposited data

Results flagged for a closer look

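Cells that met the same rule were also found in libraries outside the comparisons, and their counts are given as values. P15 cortex held 9 of 2867 filtered cells (0.314%, exact 95% interval 0.144 to 0.595%). Neurog2 had a UMI in 2 of the 9, Neurod1 in 5, Unc5d in 8, Sema3c in 7, Tbr1 in 6 and Mki67 in 1. Their median depth was 7285 UMIs. Among the 866 Slc1a3-positive cells of that library (median 5164 UMIs) Neurog2 had a UMI in 2, Neurod1 in 1 and Unc5d in 3. Sema3c had a UMI in 3 of them, Tbr1 in 6 and Mki67 in 22. P60 white matter held 5 of 1992 cells (0.251%, 0.0815 to 0.585%). Neurog2, Neurod1, Sema3c and Tbr1 each had a UMI in 3 of the 5, and Unc5d in 0, at a median depth of 8449 UMIs. Among 370 cells of the microglial gate there (median 4407 UMIs) Neurog2 and Sema3c had a UMI in 1 cell each and Neurod1 and Tbr1 in 0, which allows a share of up to 0.992% by the exact interval. Both background classes were shallower than the cells they stand beside. P60 cortex and P60 grey matter held 1 cell each, with 2 Eomes UMIs and no UMI of Neurod1, Neurog2 or Tbr1.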

How the results depend on the processing

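Between libraries, no paired analysis was possible because each group is 1 library and the labels give no replicate numbers; the class, cycling and range fits had the library as a block. Counts of called genes moved with the setting. With each library left out in turn, the calls against Slc1a3-positive cells ranged from 0 to 1165, against Dlx-positive cells from 0 to 54 and against Neurod6-positive cells from 2 to 1049, lowest without P7 cortex; the genes above all 3 classes ranged from 0 to 5. Without the library block the calls were 783 (Slc1a3), 28 (Dlx), 782 (cycling) and 772 (range). DESeq2 called 361 (Dlx), 2819 (Neurod6), 221 (cycling), 155 (range) and 27 in all 3 classes. Without a filter on low counts there were 267 (Dlx), 912 (cycling) and 14 in all 3. On cells thinned to 2000 UMIs there were 109 (Dlx), 349 (Neurod6), 201 (cycling) and 276 (range). Those fits tested fewer genes, 10596 (Dlx and Neurod6), 1620 (cycling) and 1579 (range). Sums of at least 15 cells, chosen after seeing the data, gave 187 (Dlx), 3025 (Neurod6) and 20 in all 3. With DESeq2's size factors in edgeR the Neurod6 calls were 1063 higher and 830 lower. The cycling and range fits could not be repeated without a library, which leaves no residual degree of freedom. A minimum of 50 UMIs left 216 (P2 against P7 cortex) and 932 (P7 SVZ against P7 cortex) genes past 2-fold. With 1 Eomes UMI the share was 3.29% in P2 cortex and 4.81% in P7 cortex, and with 3 it was 2.61% in P7 cortex and 0.215% in P7 SVZ. Cycling shares by the full lists were 95.4%, 99.3% and 87.5% (100% in each library unthinned). By the core list, chosen after seeing the data, they were 27.7%, 33.6% and 25%, unthinned 37.9%, 45.4% and 37.5%, with 2 UMIs 32.3%, 35% and 25%, and without doublet calls 28.1%, 33.8% and 20%. Of 5634 recomputed values of single genes 382 lost and 141 gained the call. None changed sign where the main or the changed setting made a call, and changes of sign without a call were not counted. The causes were not tested. Depth limits P7 SVZ most: 3 UMIs in its 16 cells are 22.7 CPM, against 2.45 CPM in P7 cortex.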
